A study of Mus musculus with 12 samples.

Results

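m6A peaks of 10 genes of the lung endothelium and its growth factor signals were described in mouse lung. The genes were Vegfa, Kdr, Flt1, Flt4, Tek, Tie1, Bmpr2, Pecam1, Cdh5 and Sox17. A peak was taken when the gene assigned to it was 1 of these, or when it had been called on 1 of these genes. This gave 29 of 27292 peaks in asthmatic mice and 31 of 26102 peaks in control mice. Not all 10 genes code for receptors: Vegfa codes for a ligand, Pecam1 and Cdh5 for adhesion proteins of the cell junction, and Sox17 for a transcription factor.

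The endothelium lines the blood and lymph vessels, and in the lung it forms the capillary wall across which gas is exchanged. VEGF-A, made largely by other cells than the endothelium, binds tyrosine kinase receptors on endothelial cells and drives their growth and permeability, while the angiopoietin receptor TIE2 keeps vessels quiet and tight. N6-methyladenosine (m6A) is a methylated adenosine inside mRNA, found most often near the stop codon and in the 3' UTR, where it is bound by proteins that influence decay and translation.

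Lung tissue came from female BALB/c mice of 6 to 8 weeks, with 3 mice in each group. The OVA group received ovalbumin with alum for sensitization on days 0 and 7, then breathed a 3% ovalbumin aerosol for 30 min daily from day 14 to day 20. The PBS group received PBS in both phases, and tissue was taken on day 21. The authors' methods place this after a bronchial provocation test with nebulized methacholine under anesthesia, with collection of airway lavage fluid. Whether every sequenced mouse went through these steps is not stated. From each mouse there was an immunoprecipitated (IP) library, made of RNA fragments bound by an m6A antibody, and a library of unselected fragments (input). Peaks are stretches where IP reads exceed input reads. 1 list of peaks per group was used here, with no value for a single mouse and no read counts. These lists therefore do not give the depth behind a peak, and the differences between groups described here were not checked over replicates. The lists come from whole lung, in which fewer cells of a type and less RNA per cell cannot be told apart.

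All 10 genes carried at least 2 peaks in both lists. As background, 55.3% of the protein-coding genes of RefSeq had an OVA peak and 53.9% a PBS peak. Of the genes with a peak in the OVA list, 51.1% had at least 2. Peak number differed among the 10 genes, with 5 peaks in both groups for Flt1 and Pecam1 and 2 in both groups for Tie1, Cdh5, Sox17 and Bmpr2. 28 of the 29 OVA peaks overlapped a PBS peak by at least 1 exonic base, and the same held for 30 of the 31 PBS peaks. Among all peaks, 19.4% of the OVA list and 14.5% of the PBS list had no overlap with the other list. The peaks of these genes were thus nearly all called in both groups.

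Fold enrichment, the ratio of IP to input in a peak, was low in most of these peaks. Its median was 2.52 in the OVA list, against 5.59 for all OVA peaks, and 2.47 in the PBS list, against 5.44. The genes were spread widely when each was taken by its strongest peak. The median of the strongest peaks was 9.4 in the OVA list, against 9.12 for all genes with a peak, and 8.39 against 8.78 in the PBS list. Most genes thus combined 1 or more strong peaks with weak ones, while Pecam1 and Tie1 had weak peaks alone. Percentiles given below are positions of a fold enrichment among all peaks of the same list, and where a pair of values stands without a group, OVA comes first.

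Vegfa, the ligand, had its strongest peak in the 3' UTR, at chr17:46017952-46020991 in both lists (GRCm38). Enrichment was 13.2-fold for OVA (percentile 80.3) and 8.88-fold for PBS (percentile 67.3). Nearly all of its 929 exonic bases lay in a single block that began 959 bp from the 3' end of the RefSeq gene. A 5' UTR peak, chr17:46031410-46032069 in the OVA list, had a fold enrichment of 6.61, and its PBS counterpart had 5.95. A peak of 2 exonic blocks between them, starting at 46024709 for OVA and 46024739 for PBS and ending at 46025323 in both, had 7.15 and 5.18. All 3 paired Vegfa peaks therefore had the higher fold enrichment in the OVA list, at ratios of 1.49 in the 3' UTR, 1.11 in the 5' UTR and 1.38 in the peak of 2 blocks. Over all paired peaks the median ratio of OVA to PBS was 1.098, and none of the 3 moved by 20 percentile points. The only OVA peak of the 10 genes without a PBS counterpart was also in Vegfa, a stretch of 60 bases at chr17:46017293-46017352 with a fold enrichment of 2.18.

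Kdr codes for VEGFR2, the main signalling receptor for VEGF-A. Its strongest peak lay in the 3' UTR, at chr5:75933697-75934597 for OVA and chr5:75933817-75934597 for PBS. The fold enrichment was 15.6 and 14.2, at percentiles of 85.6 and 84.7, so this peak stood at nearly the same place in both lists. A weaker 3' UTR peak closer to the end of the gene covered 241 bases for OVA and 421 for PBS, with fold enrichments of 4.28 and 3.17. The only PBS peak of the 10 genes without an OVA counterpart was an exonic stretch of 61 bases in Kdr, chr5:75961387-75961447, with a fold enrichment of 1.96. Both unmatched peaks were thus short and weak.

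Flt1 codes for VEGFR1, which binds VEGF-A tightly and is also made as a soluble form from transcripts that end early. Its 5 peaks were all annotated as 3' UTR, yet they fell into 2 places far apart. In the OVA list, 2 weak peaks lay 120 and 2275 bp from the RefSeq 3' end, with fold enrichments of 2.27 and 2.12. The other 3 had their nearer edges between 73708 and 77181 bp from that end, inside the gene. The strongest of these, chr5:147635312-147635731, had a fold enrichment of 8.70, and its PBS counterpart had 7.47. A peak of 2 blocks, chr5:147638785-147644897 in the OVA list, had 7.19 and 7.90. The assigned transcripts of these inner peaks were a retained intron or a processed transcript, and which Flt1 transcripts carried the signal was not tested. The third inner peak, at 147637078 for OVA and 147637228 for PBS, was weak, with 1.84 and 1.98. The pair of strongest Flt1 peaks thus lay in the inner stretch in both lists, beside a weak one. The Flt1 peak nearest the 3' end had 1.33 in the PBS list, at percentile 0.676 against 15.0 in the OVA list.

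Flt4 codes for VEGFR3, the receptor of VEGF-C on lymphatic endothelium. Its 3' UTR carried 1 long OVA peak of 1378 bases, chr11:49651093-49652470, with a fold enrichment of 8.33. The PBS list had 3 peaks over this stretch. The longest, chr11:49651332-49652500, had 1169 bases and a fold enrichment of 7.20, and the short ones of 61 and 60 bases had 1.81 and 1.22. The piece with 1.22 had a log10 FDR of -1.19 and was the one peak of the 10 genes that did not reach an FDR under 0.05. The same stretch was thus called as 1 peak for OVA and as a long and a short one for PBS at that FDR. These peaks were called on Flt4 but assigned to Scgb3a1, a secretory gene of the airway whose transcript start was nearer. An exonic Flt4 peak, chr11:49634095-49634215, had identical edges in both lists and fold enrichments of 1.83 and 1.72.

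**Figure D1:**
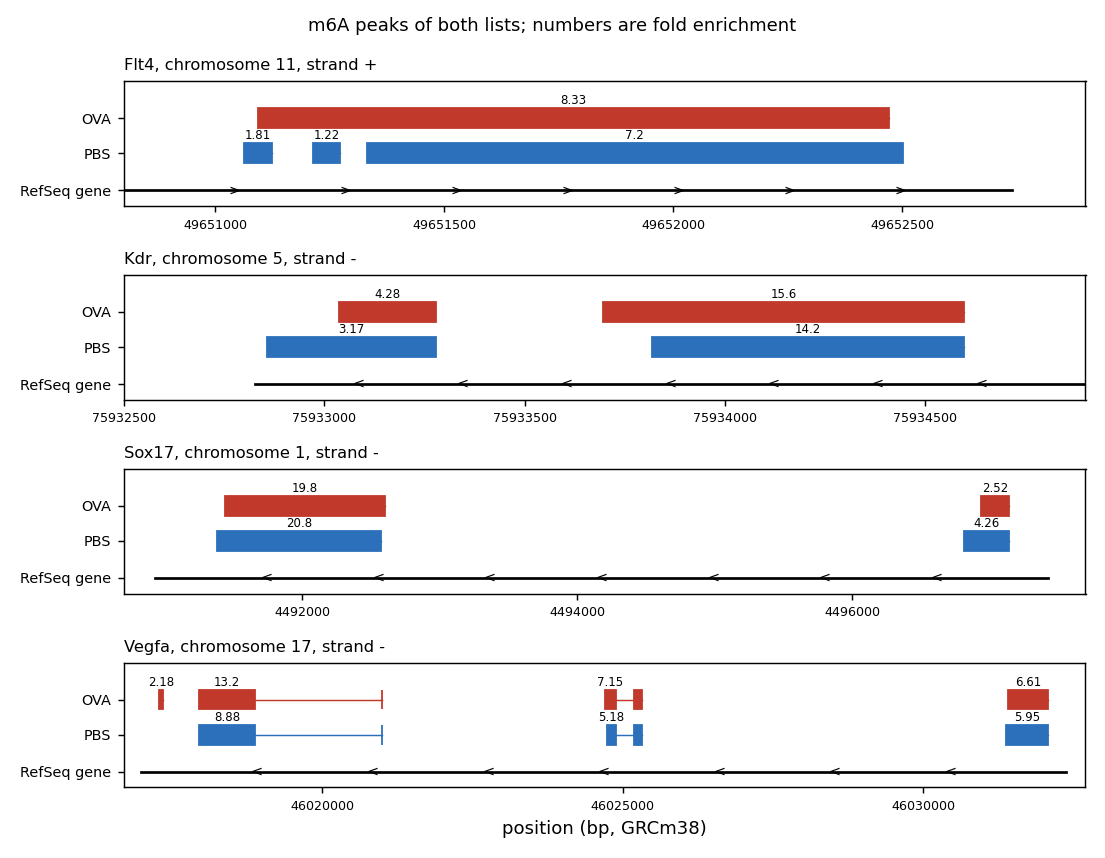
m6A peaks of both lists at the 3' end of Flt4 and of Kdr and over the whole of Sox17 and Vegfa. Bars are exonic blocks to scale on GRCm38 (bp), thin lines join the blocks of 1 peak, red is OVA, blue is PBS, the black line is the RefSeq gene with arrows along its strand, and numbers are fold enrichments. The Flt4 stretch holds 1 OVA peak and 3 PBS peaks, of which that of 1.22 did not reach an FDR under 0.05, and the Vegfa peak of 2.18 stands in the OVA list alone.

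Tek codes for TIE2, the receptor of the angiopoietins. It was the receptor gene whose strongest peak lay in the 5' UTR, starting at chr4:94739289 in both lists and ending at 94739587 for OVA and 94739557 for PBS. The fold enrichment was 10.1 and 9.75, at percentiles of 70.5 and 70.9. The 3' UTR peak, chr4:94873992-94874290 in both lists, had 4.55 and 5.04. It was called on Tek and assigned to the pseudogene Gm12693. An exonic peak of 150 bases had 1.52 and 1.24, among the lowest values of either list. Tek thus showed the same order of its 3 peaks in both groups.

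Tie1 codes for the partner receptor that modulates TIE2. Both of its peaks were weak in both groups. The peak at the very end of the gene, chr4:118471191-118471371, had fold enrichments of 2.07 for OVA and 2.35 for PBS. The other, at 118479365 for OVA and 118479305 for PBS, had 2.14 and 2.06. The annotation places it in a 3' UTR, although its OVA peak lay 8174 bp from the RefSeq 3' end. By its strongest peak, Tie1 stood at percentile 5.73 of all genes with a peak in the OVA list, where Tek stood at 53.9. Of the TIE receptors, Tek thus had the stronger leading peak in both lists.

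Bmpr2 codes for the type II receptor of bone morphogenetic proteins, whose loss is a cause of heritable pulmonary arterial hypertension. Its 5' UTR peak was chr1:59763909-59764389 for OVA and chr1:59763939-59764419 for PBS, with fold enrichments of 5.63 and 4.36. In both lists the peak began upstream of the RefSeq start of the gene at 59764279. The 3' UTR peak, ending at 59870712 in both lists, joined 2 blocks with 1619 exonic bases for OVA and 1589 for PBS. Its fold enrichment was 7.43 and 7.62. This was the longest peak of the 10 genes in both lists, and it had the lowest p of them in the OVA list.

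Pecam1 codes for an adhesion protein of endothelial junctions and blood cells. It carried 5 peaks in both lists, and each overlapped its counterpart. Fold enrichments ran from 1.48 to 2.13 for OVA and from 1.38 to 2.47 for PBS. The highest of them stood at percentile 12.6 and 19.0. Low enrichment came with small p in some of these peaks. The 2-block exonic peak chr11:106688818-106690942 had fold enrichments of 1.93 and 2.01 and log10 p of -216 and -274. Among all OVA peaks with a fold enrichment under 2, 12.5% had a log10 p of -20 or lower, and in the 10 genes 5 of 8 did. For PBS peaks it was 11.3%, and 3 of 11 in the 10 genes. For a given enrichment a peak's p falls as its reads increase, and the read numbers were not used here.

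Cdh5 codes for VE-cadherin, the adhesion protein that holds endothelial cells together. All its peaks were assigned to Gm45663, so a search by assigned gene alone would leave Cdh5 with none. Its strong 3' UTR peak, chr8:104142514-104143736 for OVA and chr8:104142544-104143766 for PBS, had fold enrichments of 11.1 and 9.50. A weaker peak beyond it had 1.97 and 1.43. Of the pair of junction genes, Cdh5 thus had a strong peak and Pecam1 had none.

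Sox17 codes for a transcription factor of arterial endothelium. It had the strongest peak of the 10 genes in both lists, in the 3' UTR at chr1:4491438-4492601 for OVA and chr1:4491378-4492571 for PBS. The fold enrichment was 19.8 (percentile 91.7) and 20.8 (percentile 93.9). Its 5' UTR peak was the single pair of the 10 genes that moved by at least 20 percentile points. It had a fold enrichment of 2.52 for OVA (chr1:4496937-4497145, percentile 19.3) and 4.26 for PBS (chr1:4496817-4497145, percentile 40.9). A peak called on Gm37587 overlapped it in both lists, by 208 bases for OVA and 327 for PBS, with fold enrichments of 2.47 and 4.25. The libraries were made with a dUTP method that keeps the strand. Whether strand was used when peaks were called is not given in the sources used here, so the signal of the overlapping genes was not separated.

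**Figure D2:**
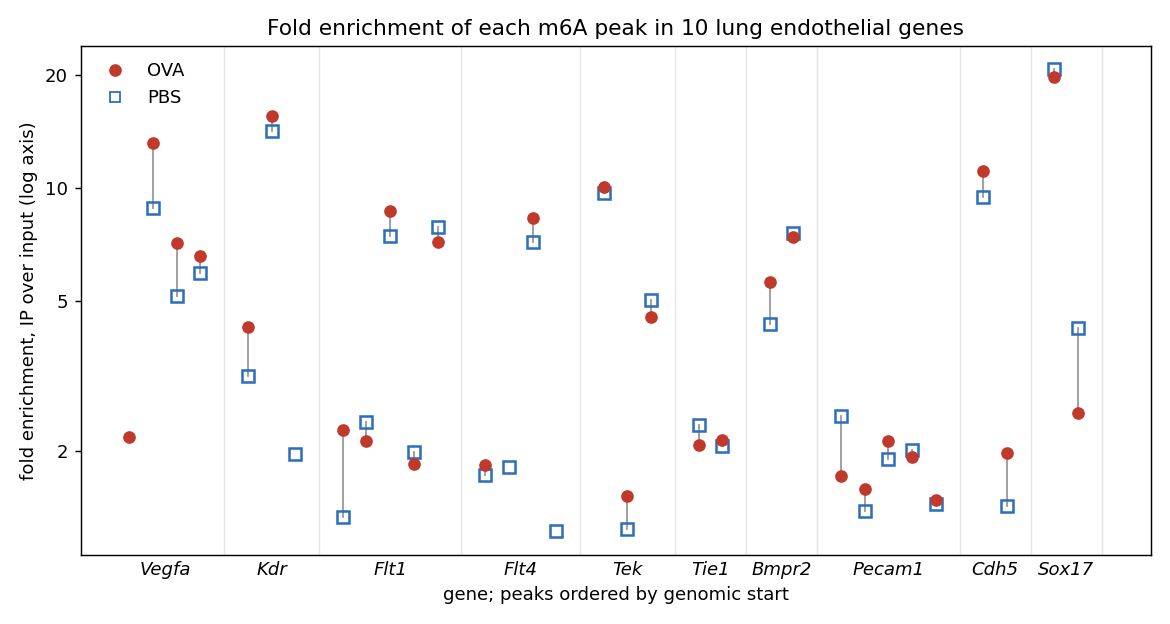
Fold enrichment of IP over input (log axis) for each peak of the 10 genes, ordered by genomic start within a gene. Red circles are OVA, blue squares are PBS, lines join paired peaks, and single symbols are peaks without a pair, among them 2 short Flt4 peaks that overlap an OVA peak paired with a longer one. Sox17 and Kdr hold the highest values and Pecam1 and Tie1 none above 2.47.

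Peaks of the lists were paired by their largest exonic overlap, which gave 28 pairs in the 10 genes. Percentiles differed by at least 20 points in 1 of the 28 pairs, against 15.7% of all 20644 pairs. Strong pairs move less: with a log10 p of -100 or lower in both lists, 2.23% of all pairs and 0 of 12 pairs of the 10 genes did. The fold enrichment was higher in the OVA list in 18 pairs and in the PBS list in 10, and over all pairs 61.4% were higher in the OVA list. Edges were close as well. At the edge that differed more, the member pairs lay a median of 30 bp apart and all pairs 60 bp, and 7 of the 28 pairs had identical edges, against 13.5% of all pairs. Among strong pairs the median was 30 bp both in the 10 genes and in all, and 3 of 12 pairs of the 10 genes had identical edges, against 19.9% of all. By percentile the Sox17 5' UTR peak alone moved. By a ratio at least 1.5 times above or below the median ratio, the peaks nearest the 3' end of Flt1 (2.27 and 1.33) and of Pecam1 (1.71 and 2.47) moved too, which made 3 of 28, against 27.3% of all pairs.

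The p of the peaks showed another pattern. In 23 of the 28 pairs the p was lower in the PBS list, against 40.3% of all pairs. This count was chosen after the values were seen. In the strongest Kdr peak log10 p was -2850 for OVA and -6040 for PBS. In the Vegfa 3' UTR peak it was -1420 and -3400, and in the Bmpr2 peak annotated as 3' UTR -3030 and -5250. The size of log10 p was larger in the PBS list by a median factor of 1.74 in the 10 genes, while over all pairs the median factor was 0.88. Ranking peaks by p within their own list gave the same number, 23 of 28 ranked higher in the PBS list, against 46.7% of all pairs. Of the 12 pairs with a log10 p of -100 or lower in both lists, 12 had the lower p in the PBS list, against 41.3% of all such pairs. The 5 pairs with the lower p in the OVA list were 2 of Pecam1 and 1 each of Flt1, Tek and Cdh5. In 13 of the 23 pairs with the lower p in the PBS list the fold enrichment was higher in the OVA list, against 42.3% of all pairs with the lower p in the PBS list, so in these pairs enrichment and p went opposite ways. A peak's p also depends on its number of reads, which the lists do not give.

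**Figure D3:**
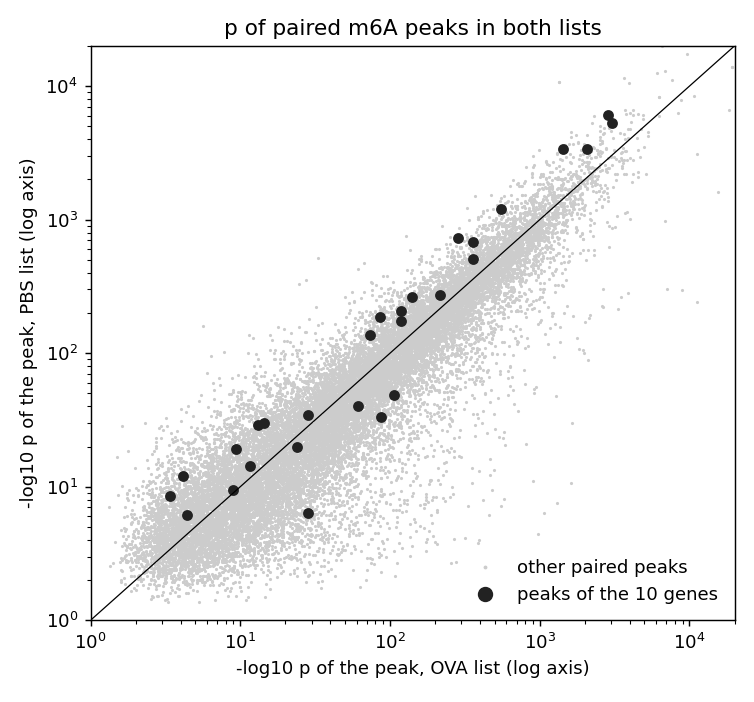
Size of log10 p in the OVA list (x, log axis) and the PBS list (y, log axis) for paired peaks, with the 28 pairs of the 10 genes in black, other pairs in grey and the line of equal values. Of the black points, 23 lie above the line.

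Markers of cell types were counted in the same way. In leukocyte markers the p was lower in the PBS list in 1 of 7 pairs, with a median factor of 0.331. The count was 4 of 9 in lung epithelium markers. It was 2 of 9 in smooth muscle and pericyte markers, but 5 of 9 by rank of p within each list. Other markers of lung endothelium, among them the junction gene Cldn5, had 9 of 17, with a median factor of 1.04. The median factor was 0.899 in lung epithelium markers and 0.935 in smooth muscle and pericyte markers. These counts are small, stand beside 40.3% of all pairs, and were not tested against the 10 genes. Peaks were found in both lists for 5 leukocyte markers, with Csf1r the most enriched, and there were none on Cd79a, Siglecf, Ly6g, Cd68 and Marco. They were found for 11 of 13 endothelial markers, with none on Emcn and Egfl7. In the PBS list 10 of these 11 had a peak at an FDR under 0.05, as the peak of Ackr1 did not reach it. Peaks in both lists were also found for 7 of 9 epithelial markers, with none on Sftpc and Epcam, and for 4 of 7 smooth muscle markers. Tagln had a peak in the OVA list alone, Cnn1 in the PBS list alone, and Acta2 in neither. The lists give no expression levels, and the part of cell composition in these values was not tested.

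By the authors' annotation, 19 of the 29 OVA peaks lay in a 3' UTR (65.5%, 95% Wilson interval 47.3% to 80.1%), and 20 of the 31 PBS peaks (64.5%, 46.9% to 78.9%). All peaks of the lists had 52.7% in both. The 5' UTR held 4 peaks of the 10 genes in both lists, on Bmpr2, Tek, Vegfa and Sox17, or 13.8% and 12.9%, against 11.6% and 11.4% of all peaks. Other exonic positions held 6 OVA and 7 PBS peaks, or 20.7% (9.85% to 38.4%) and 22.6% (11.4% to 39.8%), against 35.7% and 35.9% of all peaks. The intervals cover counting error only, and the 3' UTR and exonic shares of all peaks lay within them. Assigned transcripts were retained introns for 13 of the 29 OVA peaks, against 20.4% of all OVA peaks, so the transcript named in the lists was often not the coding one.

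Promoter sequences of RefSeq (GRCm38, 300 bases from 250 before to 50 after a start) lay wholly under peaks of Bmpr2 and partly under peaks of Tek and Vegfa. They were searched on the strand of the gene for GGACT and GGACA, the core of the common m6A motif, a search chosen after the data were seen. Of all 32851 windows, 26.1% held GGACT, 28.2% held GGACA and 46.6% held either. The Bmpr2 window lay wholly inside both 5' UTR peaks and held neither, and the Tek window, with 50 bases under the peak, held neither. In Vegfa the window at chr17:46025114-46025413 shared 128 bases with the peak of 2 blocks in both lists and held GGACA once. This GGACA lay in the part of the window before the start. This match is shown because it lies under a peak of both lists, on the minus strand at chr17:46025282-46025310, with GGACA in capitals.
Vegfa: gggggggcaggaGGACAgtggtacaagga
The match is a description of these letters, not a methylated position. Other stretches of the peaks were not searched here.

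Genes that act with the 10 were taken from lists. Of 76 such genes, 69 had an OVA peak, against 55.3% of the protein-coding genes of RefSeq. A PBS peak was found on 70, against 53.9%, and 68 had both. Values for the 76 genes are of the strongest peak called on the gene in the OVA and then in the PBS list, which need not be the same peak. Among VEGF ligands and co-receptors 4 of 6 had a peak in both lists, and Vegfb and Vegfd had none. Vegfc, the ligand of VEGFR3, had 36.7 and 40.2, and the co-receptor Nrp2 had 22.3 and 32.6. Of the angiopoietin ligands and the receptor phosphatase, 3 of 4 had a peak in both. Ptprb, the phosphatase that restrains TIE2, had 13.5 and 14.2, and the TIE2 agonist Angpt1 had 12.4 and 10.3. Vegfc and Nrp2 thus had stronger peaks than any of the 10 genes. The p was lower in the PBS list in 3 of 8 pairs of the VEGF genes and in 3 of 6 pairs of the angiopoietin genes, or 4 of 6 by rank within each list. Of all pairs it was 40.3%, or 46.7% by rank.

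All 19 genes of a set of BMP and TGF-beta receptors, BMP ligands, SMADs and Id genes had a peak in both lists. The inhibitory Smad7 had the highest fold enrichment, 162 and 141, and the ligand Bmp2 had 46.5 and 13.6. The p was lower in the PBS list in 27 of the 38 pairs of these 19 genes, against 40.3% of all pairs. By rank within each list it was 29 of 38, against 46.7%. All 13 endothelial transcription factors had a peak in both lists as well, led by the ETS factors Erg, with 62.6 and 67.6, and Ets1, with 38.8 and 38.3. In these transcription factors the p was lower in the PBS list in 17 of 26 pairs, or 18 of 26 by rank. Every gene of these lists thus had a peak in both groups, as the 10 genes did. Of all protein-coding genes of RefSeq, 55.3% had an OVA peak and 53.9% a PBS peak.

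Of the hypoxia regulators of Vegfa, 6 of 8 had a peak in both lists. Their p was lower in the PBS list in 6 of 13 pairs, or 7 of 13 by rank. Hif1a, the oxygen-sensitive activator of Vegfa, had a peak in the OVA list alone, with a fold enrichment of 1.6. The prolyl hydroxylases Egln1 and Egln3, which mark HIF proteins for decay, also had peaks. Egln1 had 20.5 in a 5' UTR peak for OVA and 18.5 in a 3' UTR peak for PBS, and Egln3 had 13.5 and 8.88. Endothelial junction genes had peaks in both lists for 12 of 14. Jup, or plakoglobin, and Mcam had a peak in the PBS list alone, with 1.51 and 2.21. The tight junction gene Cldn5 had 21.8 and 10.8, and Ctnnd1, whose product p120-catenin binds VE-cadherin, had 14.1 in a 3' UTR peak for OVA and 14.3 in a 5' UTR peak for PBS. The p of junction genes was lower in the PBS list in 15 of 18 pairs. In VEGF receptor signalling 11 of 12 genes had a peak in both lists, with the kinase Ptk2 at 35.1 and 27.3 and the adaptor Shb at 27.5 and 22.2, and here the p was lower in the PBS list in 4 of 15 pairs. The share of pairs with the lower p in the PBS list thus ran from 4 of 15 to 15 of 18 among these lists. Of all pairs it was 40.3%, and these differences were not tested.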

How the data were processed

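MeRIP-seq covered lungs of 3 mice per group, with 6 IP and 6 input libraries. The authors cleaned reads with FASTP, mapped them with HISAT2, used exomePeak to call peaks and ChIPseeker for annotation, and deposited 1 list per group. How replicates were combined is not given in the sources used here. Fold enrichments are deposited as a ratio, IP to input. The deposited log10 p and FDR are scores of the peak caller. Deposited starts count from 0 (649 of 677 OVA peaks that begin at a transcript edge lie 1 base before it), so 1 was added.

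Members were matched by symbol or Ensembl identifier, and 10 of 10 were found. Overlap needed 1 exonic base, and ties went to the peak called on the same gene. Named pathway genes are, per list, the 2 with the highest fold enrichment in the OVA list at an FDR under 0.05, and those with a peak in 1 list. Vegfb and Vegfd, without a peak, are named as well, and other genes without a peak are not. The members and lists were chosen with earlier results of these data known. The overlap code was tested on simulated data. Python 3.11.15, numpy 2.4.6, pandas 2.3.3, scipy 1.17.1 and matplotlib 3.10.9 were used. The planned motif search in peaks needs a genome and was not run. A leukocyte marker and a gene assigned to a peak are not reported here.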

Additional observations from a re-analysis of the deposited data

How the results depend on the processing

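Of 47 alternative settings, 37 left the counts within 1.5 times of those reported. With peaks assigned to protein-coding transcripts alone, 8 OVA and 10 PBS peaks remained, on 6 of the 10 genes in both lists. A fold enrichment of at least 2 left 20 of the PBS peaks. Pairs with identical start and end numbered 7 in both lists, and a fold enrichment of at least 2 in both lists left 18 overlapping peaks in both. When a pair counted as moved at 1.5 times above or below the median ratio, 3 of 28 pairs moved in place of 1, against 27.3% of all pairs. They were the Sox17 5' UTR peak and the peaks of Flt1 and Pecam1 nearest the 3' end. These alternatives keep fewer peaks by construction or use another measure. The lower p in the PBS list was counted under alternatives chosen after seeing the data, and these gave between 18 and 23 pairs, the lowest being 18 of the 18 pairs with a fold enrichment of at least 2 in both lists. The search for GGACT in whole peaks, with its alternatives, was not run. No paired analysis was possible because the lists used here, 1 per group, hold no values of single mice, and for the same reason no mouse could be left out. The lists give no reads, so weak or short peaks such as those found in 1 list cannot be weighed by depth.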
